A study of Mus musculus with 2 samples.

Results

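The genes described here encode parts of the renin-angiotensin system and the receptors for corticosteroid hormones. Of 6 listed symbols, Agt, Ace, Agtr1a, Nr3c1 and Nr3c2 were found in the gene table of both sections, which holds 19465 genes. The sixth, Agtr2, was not analysed here. Expression was measured with Visium CytAssist, which hybridizes gene-specific probes to formalin-fixed, paraffin-embedded tissue, transfers them to barcoded array spots and counts them as unique molecular identifiers (UMIs). Data came from 1 heart section of a control α-MHC-MerCreMer+/− mouse and 1 of a TOP2B transgenic α-MHC-MerCreMer+/− hTOP2BLSL/− mouse. Both mice carried the MerCreMer recombinase under the α-MHC promoter, which is active in cardiomyocytes, and both received 80 mg/kg of tamoxifen, given at 6 weeks of age in the study's acute model. In the transgenic mouse this removes a stop cassette in front of a human TOP2B cDNA at the Rosa26 locus.

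In the control, 14376300 UMIs lay in 1256 spots (median 11335.5 in a spot), and in the transgenic section 12953389 UMIs lay in 924 spots (median 14531). A level is the gene's UMIs per 1000000 UMIs of the section (CPM), and a log2 ratio sets the transgenic over the control level. Ranges in parentheses are 95% intervals for counting error only, since UMIs of 1 section carry no information on the spread between mice. With 1 section per group no test was possible, and no difference has a replicate check. A spot covers several cells, so a change in how many cells of a type lie in the section and a change in RNA per cell cannot be told apart. Genes are captured by different probes, so levels were not compared between genes. Mouse Top2b stood at 106 CPM in the control heart and 102 CPM in the transgenic heart, and whether its probes capture the human cDNA is not given in the sources used here. The Y chromosome genes Ddx3y, Uty, Kdm5d and Eif2s3y had no UMI in either section, and Xist was not analysed here.

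Angiotensinogen, the product of Agt, is cut by renin to angiotensin I, which angiotensin-converting enzyme, the product of Ace, turns into angiotensin II. Angiotensin II acts on cells mainly through the type 1 receptor, encoded in part by Agtr1a in the mouse, and raises blood pressure, aldosterone secretion and the growth of fibrous tissue. Circulating angiotensinogen comes mainly from the liver, and Ace is best known from the surface of vascular endothelium. Nr3c1 encodes the glucocorticoid receptor and Nr3c2 the mineralocorticoid receptor, hormone-dependent transcription factors that share many DNA sites and both bind corticosterone. In the heart this system is known for its part in remodelling and as the target of drugs for heart failure.

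The promoter sequences of both genes with the largest ratios are shown because Agt and Ace moved in the same direction between the sections. They are the 100 bases before each start site in the RefSeq table of build GRCm38.p6, read 5′ to 3′ on the gene's strand. Capitals mark a TATAAA box.
Agt, minus strand, chr8:124569707-124569806: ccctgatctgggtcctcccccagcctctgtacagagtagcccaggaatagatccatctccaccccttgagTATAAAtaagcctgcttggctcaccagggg
Ace, plus strand, chr11:105967848-105967947: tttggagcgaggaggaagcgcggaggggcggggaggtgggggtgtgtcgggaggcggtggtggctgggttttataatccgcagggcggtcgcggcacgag
Ace, plus strand, chr11:105975089-105975188: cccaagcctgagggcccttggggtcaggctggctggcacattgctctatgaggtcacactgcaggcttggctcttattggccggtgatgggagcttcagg
The Agt promoter held TATAAA, which began 30 bases before the start site (position -30) and was searched on the gene's strand only. The same letters occurred in 8.32% of 32851 mouse promoters of 300 bases. Neither Ace start site had them, and only exact matches were counted. Which Ace start site was used in these hearts was not tested. The letters AGAACA, the core of a glucocorticoid receptor site, were absent on both strands from the 300 bases around these start sites. They were held by 19.0% of the same 32851 promoters. These matches describe letters only. The table has no entry for Agtr1a.

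Agt and Ace were higher in the transgenic section, Agtr1a and Nr3c2 were lower, and Nr3c1 was moderately higher. Agt and Ace were past 2-fold higher, against 13.7% of the 15236 genes with at least 20 UMIs over both sections. Agtr1a and Nr3c2 were past 2-fold lower, against 5.61% of those genes. Past 2-fold in either direction were 19.3% of all genes and 4 of the 5 described here. As a spread inside a section, each was split into 4 quadrants at the median row and column of its spots. The quadrant levels of the sections did not overlap for any of the 5 genes, which also held for 43.4% of all genes tested. All transgenic quadrants were above all control quadrants for Agt, Ace and Nr3c1, as for 30.3% of all genes, and below them for Agtr1a and Nr3c2, as for 13.1%. The median log2 ratio of all genes was 0.20.

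**Figure D1:**
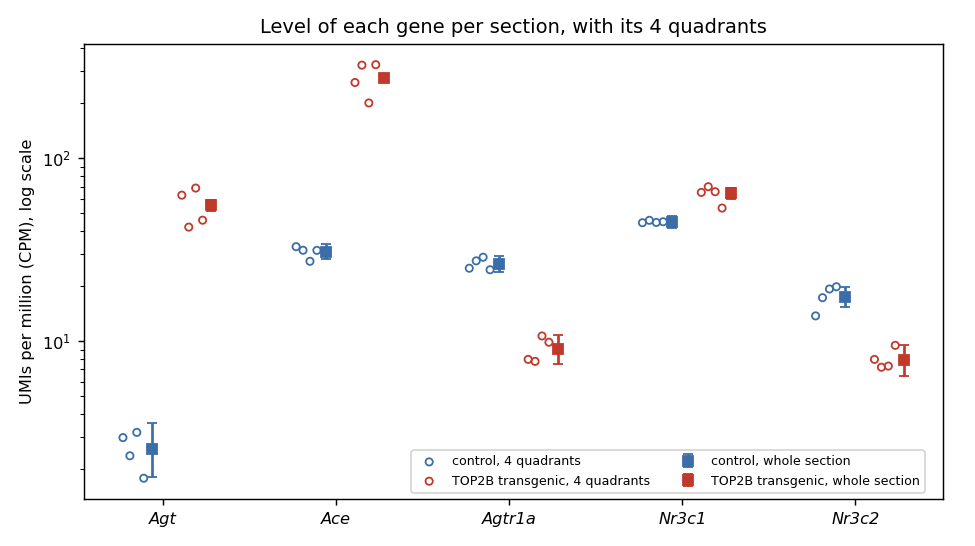
Level in CPM (log axis) of Agt, Ace, Agtr1a, Nr3c1 and Nr3c2 in the control (blue) and TOP2B transgenic (red) section. Squares give the whole section with its 95% counting interval, and open circles give its 4 quadrants, which are not replicates. The transgenic quadrants of Agt lie between 42.1 and 68.8 CPM and the control quadrants between 1.78 and 3.17 CPM, and for Agtr1a and Nr3c2 the order of the sections is the other way.

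Agt, the substrate of the system, was seldom counted in the control section. The control heart gave 37 UMIs and the transgenic heart 716. The level was 2.57 CPM (1.81 to 3.55) in the control heart and 55.3 CPM (51.3 to 59.5) in the transgenic heart. The log2 ratio was 4.42 (3.95 to 4.94), or 21.5-fold, and 0.295% of all genes tested had a higher ratio. At least 1 Agt UMI was found in 36 control spots, or 2.87% (2.02 to 3.95), and in 472 transgenic spots, or 51.1% (47.8 to 54.4). After thinning to an equal depth of 8134 UMIs per spot, for which 140 control and 78 transgenic spots were too shallow, the shares were 2.15% and 34.0%. Cyp11b2, aldosterone synthase of the adrenal cortex, had a UMI in 0.637% of control and 1.08% of transgenic spots. Its probes differ from those of Agt, so these shares give no background level for Agt. No control spot held more than 2 Agt UMIs, while 171 transgenic spots held 2 or more and the highest held 6. Agt was found in all 4 quadrants of both sections, at 1.78 to 3.17 CPM in the control and 42.1 to 68.8 CPM in the transgenic section. With 37 control UMIs the low share of control spots follows from the low level and says nothing on position.

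Ace, the converting enzyme, was present in both sections and much higher in the transgenic heart. It had 443 UMIs in the control section, or 30.8 CPM (28.0 to 33.8). In the transgenic section it had 3564 UMIs, or 275 CPM (266 to 284). The log2 ratio was 3.16 (3.02 to 3.30), or 8.93-fold, with 0.886% of all genes tested above it. The control quadrants lay between 27.4 and 32.9 CPM, and the transgenic quadrants had 201, 260, 324 and 326 CPM. A spot with an Ace UMI made up 27.9% (25.5 to 30.5) of control spots and 88.0% (85.7 to 90.01) of transgenic spots. At equal depth the shares were 21.1% and 82.7%. Control spots held at most 4 Ace UMIs and transgenic spots up to 22, as raw counts at unequal depth. The share of spots with a UMI and the highest count both rise with the level, so they are not separate observations.

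Agtr1a, the main type 1 receptor gene for angiotensin II, moved in the opposite direction to Agt and Ace. It had 381 UMIs in the control section, or 26.5 CPM (23.9 to 29.3). The transgenic section had 117 UMIs, or 9.03 CPM (7.47 to 10.8). The log2 ratio was -1.55 (-1.86 to -1.25), with the control level 2.93-fold above the transgenic level. Only 1.60% of all genes tested had a ratio as low or lower. The control quadrants lay between 24.6 and 28.8 CPM and the transgenic quadrants between 7.75 and 10.7 CPM, and all of the latter were below all of the former. Agtr1a was counted in 25.9% (23.5 to 28.4) of control spots and 11.3% (9.29 to 13.5) of transgenic spots, although the transgenic spots were deeper. At equal depth these shares were 18.5% and 6.15%.

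The corticoid receptors moved in opposite directions. Nr3c1, the glucocorticoid receptor gene on chromosome 18, had 647 UMIs in the control section, or 45.0 CPM (41.6 to 48.6). The transgenic section had 833 UMIs, or 64.3 CPM (60.0 to 68.8). The log2 ratio was 0.51 (0.36 to 0.67), or 1.43-fold, and 68.9% of all genes tested had a ratio as low or lower. This ratio lay 0.31 above the median of all genes, so it was not far from the middle of the distribution. The control quadrants were nearly level, at 44.5 to 45.8 CPM, and the transgenic quadrants ranged from 53.5 to 70.0 CPM. Spots with a Nr3c1 UMI made up 38.7% of the control and 56.8% of the transgenic section. At equal depth they made up 30.1% and 41.7%.

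Nr3c2, the mineralocorticoid receptor gene on chromosome 8, was the other gene with a lower level. It had 251 UMIs in the control section, or 17.5 CPM (15.4 to 19.8). In the transgenic section 102 UMIs gave 7.87 CPM (6.42 to 9.56). The log2 ratio was -1.15 (-1.50 to -0.81), with the control 2.22-fold above the transgenic section, and 3.98% of all genes tested were as low or lower. The control quadrants had 13.7 to 19.8 CPM and the transgenic quadrants 7.20 to 9.49 CPM, without overlap. The share of spots with a UMI was 18.1% in the control and 9.74% in the transgenic section, and 13.6% and 7.21% at equal depth.

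Other measures of the tissue moved with these ratios. Cardiomyocyte markers summed to 50816 CPM in control tissue and 32525 CPM in transgenic tissue, so both were heart muscle as labelled. Of the 7 cardiomyocyte markers measured, 2 were higher and 5 lower in the transgenic section. All 8 fibroblast markers were higher in the transgenic section, with sums of 749 CPM (control) and 1596 CPM (transgenic). All 8 macrophage markers were higher as well, at 315 and 621 CPM. The 8 endothelial markers summed to 951 and 955 CPM, with 5 higher and 3 lower. The 5 smooth muscle markers summed to 729 and 706 CPM, with 3 higher and 2 lower. Red cell genes summed to 2146 CPM in control tissue and 20420 CPM in transgenic tissue, where the quadrants ranged from 7858 to 47860 CPM. Atrial markers summed to 21.4 CPM in control tissue and 58.4 CPM in transgenic tissue, with control quadrants from 5.47 to 61.7 CPM. Of the atrial markers with at least 20 UMIs, 2 were higher and 1 lower in the transgenic section. Mesothelial markers summed to 14.1 and 35.4 CPM, with 5 higher and 1 lower. No measured marker of these lists was at 0. The part of the fibroblast, macrophage, atrial and mesothelial markers in the ratios of the 5 genes was not tested. Without the 10% of spots richest in red cell genes the log2 ratios were 4.35 for Agt, 3.14 for Ace, -1.47 for Agtr1a, 0.52 for Nr3c1 and -1.15 for Nr3c2. Without the 10% richest in fibroblast markers they were 4.41, 3.15, -1.52, 0.50 and -1.17 in the same order.

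The genes also differed in how they lay within a section. Moran's I, a score of whether neighbouring spots have similar values that the authors deposited per gene, was 0.009 for Ace in control tissue and 0.320 in transgenic tissue. The control value of Ace was as high as or higher than that of 77.4% of genes in its section, and the transgenic value than that of 98.1%. For Agt it was -0.010 in control tissue and 0.077 in transgenic tissue, the latter at or above that of 90% of genes. Moran's I lay between -0.011 and 0.021 for Agtr1a, Nr3c1 and Nr3c2 in both sections. Control Nr3c1, at 0.015, was at or above 87.8% of genes in its section, and transgenic Nr3c1, at 0.021, at or above 66.5%. Moran's I also moves with the number of UMIs, which differed between the sections, and the part of depth was not tested. The transgenic quadrants with the most Agt, at 62.9 and 68.8 CPM, had the least Ace, at 260 and 201 CPM. Edge spots, which lack at least 1 of the 6 neighbouring positions, did not stand apart from interior spots, and the interval of the log2 ratio of edge over interior included 0 for all 5 genes in both sections. For transgenic Ace this ratio was -0.02 (-0.13 to 0.08), and for transgenic Agt it was -0.05 (-0.30 to 0.19).

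**Figure D2:**
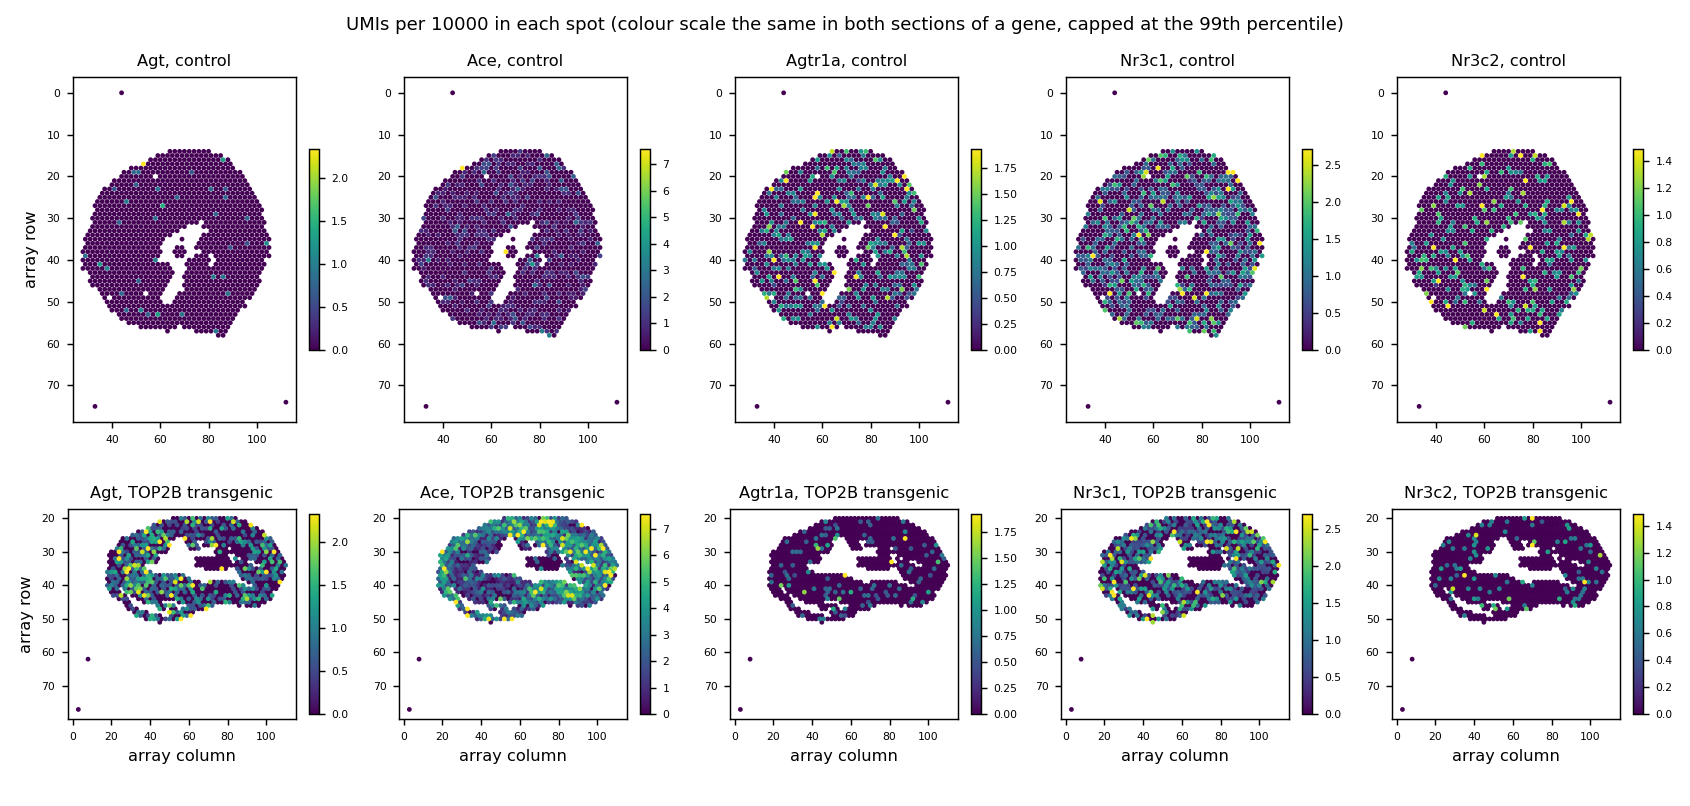
Array maps of both sections, 1 point per spot at its array row and column, coloured by UMIs of the gene per 10000 UMIs of the spot, with control above and TOP2B transgenic below and the same colour scale for both sections of a gene. Ace is high on the right and low at the lower left of the transgenic ring and Agt is higher on the left, while 4 control and 2 transgenic spots without any neighbour, which hold 1328 and 1 UMIs in all, lie apart.

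Spots were then ranked within each section by their share of UMIs from cardiomyocyte markers, a ranking chosen after values had been seen, and cut into quartiles. In the transgenic section Ace was lower the richer the spots were in cardiomyocyte markers. From the lowest to the highest quartile Ace had 374, 326, 238 and 168 CPM. Its log2 ratio of the highest over the lowest quartile was -1.16 (-1.31 to -1.01). Agt ran the other way, with 40.4, 49.3, 55.7 and 74.7 CPM and a log2 ratio of 0.89 (0.56 to 1.21). In the control section Ace had 33.1 CPM in the lowest and 29.9 CPM in the highest quartile, and the interval of their ratio (-0.53 to 0.24) included 0. Agt had 9 and 6 UMIs in these control quartiles, too few for a statement.

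The fibrillar collagen genes Col1a1, Col1a2 and Col3a1 gave a second ranking of the spots, also chosen after values had been seen. Over transgenic spots Ace correlated with Col1a2 (r = 0.55), Col1a1 (r = 0.53) and Col3a1 (r = 0.51). The rise of transgenic Ace over this ranking and these correlations are therefore not separate observations. In the transgenic section Ace had 125, 239, 308 and 403 CPM from the collagen-poorest to the collagen-richest quartile. The log2 ratio of the ends was 1.69 (1.52 to 1.86). Ace also followed collagen in the control section, at 21.9, 27.2, 34.6 and 40.3 CPM, with a log2 ratio of 0.88 (0.47 to 1.30). Over control spots its correlations were 0.11 with Col3a1, 0.095 with Col1a1 and 0.058 with Col1a2. The control rise is not a separate observation from these either. Agt went down over the transgenic quartiles, at 78.1, 57.3, 48.2 and 41.2 CPM, with a log2 ratio of -0.92 (-1.24 to -0.61). The difference of these gradients between the sections was not tested. A gene and the ranking genes are shares of the same spot total, and the median depth of the transgenic collagen quartiles lay between 13386 and 15164 UMIs.

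**Figure D3:**
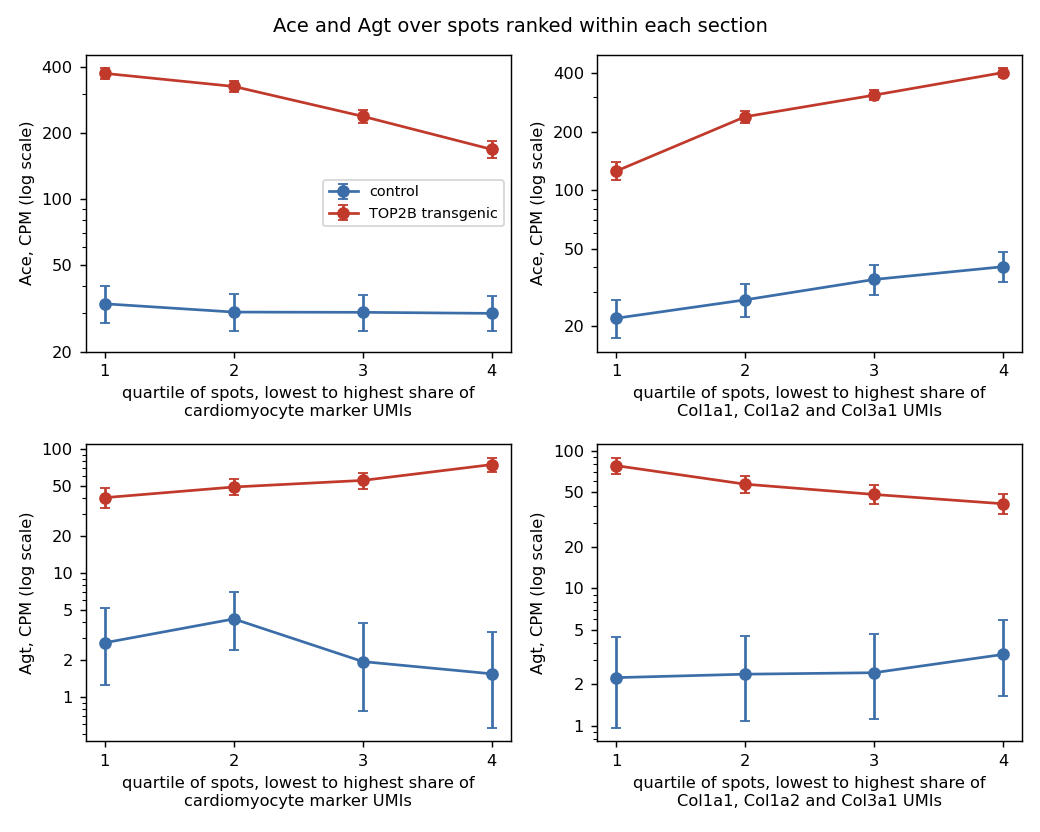
Level of Ace (top) and Agt (bottom) in CPM on a log axis over quartiles of spots, ranked within each section by the share of cardiomyocyte marker UMIs (left) and of Col1a1, Col1a2 and Col3a1 UMIs (right). Points are quartiles of the control (blue) and TOP2B transgenic (red) section with 95% counting intervals, and transgenic Ace goes from 125 to 403 CPM with collagen while Agt goes from 78.1 to 41.2 CPM.

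Over the quartiles of both rankings Agtr1a lay on the side of Agt in the transgenic section, on few UMIs. It had 10.8, 11.1, 9.58 and 5.01 CPM over the collagen quartiles, with a log2 ratio of the ends of -1.11 (-2.06 to -0.21). Over the cardiomyocyte quartiles it went from 5.43 to 11.02 CPM, with a log2 ratio of 1.02 (0.13 to 1.97). In the 10% of transgenic spots richest in cardiomyocyte markers it had 6.27 against 9.33 CPM elsewhere. The log2 ratio was -0.57 (-1.82 to 0.46), and with the richest 20% it was 0.06 (-0.65 to 0.72). The direction of Agtr1a over cardiomyocyte markers therefore rested on the cut. Over the quartiles of the control section no gradient went beyond counting error, with log2 ratios of -0.17 (-0.61 to 0.27) for collagen and -0.02 (-0.45 to 0.40) for cardiomyocyte markers. Nr3c1 was nearly level over collagen in the transgenic section, between 61.3 and 67.1 CPM. The intervals of Nr3c1 and Nr3c2 included 0 for both rankings in both sections.

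The 10% of spots richest in each list of cell type markers were set against the other 90% of the same section. Spots rich in smooth muscle markers had more Ace, at 52.0 against 28.5 CPM in the control and 386 against 262 CPM in the transgenic section. The log2 ratios were 0.87 (0.49 to 1.23) and 0.56 (0.42 to 0.69). Spots rich in fibroblast markers also had more Ace in both sections, at 44.8 against 29.4 CPM and 391 against 262 CPM. Transgenic spots rich in cardiomyocyte markers had less Ace, at 145 CPM against 289 CPM elsewhere, while the control values were 30.5 and 30.9 CPM. The log2 ratio there was -0.996 (-1.22 to -0.78), and for the control it was -0.02 (-0.48 to 0.42). The difference between them was not tested. Transgenic spots rich in endothelial markers had 210 CPM of Ace against 282 CPM elsewhere, a log2 ratio of -0.43 (-0.62 to -0.24), and the control values were 35.9 and 30.3 CPM, with a log2 ratio of 0.24 (-0.24 to 0.69). Transgenic spots rich in macrophage markers had 340 against 268 CPM of Ace, and those rich in atrial markers 347 against 267 CPM. Those rich in mesothelial markers had 310 against 272 CPM, and those rich in red cell genes 230 against 278 CPM. For pericyte, adipocyte and Schwann cell markers the transgenic intervals included 0.

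Differences of the receptor genes rested on the cut of 10%. Agtr1a had 16.6 against 27.6 CPM in control spots rich in smooth muscle markers and 3.71 against 9.65 CPM in transgenic ones, with 5 UMIs in the latter. With the richest 20% of spots the log2 ratios were -0.31 (-0.72 to 0.08) and -0.24 (-0.98 to 0.44), and both intervals included 0. Agt, which is not a receptor gene, had 69.0 against 53.8 CPM in transgenic spots rich in cardiomyocyte markers, with a log2 ratio of 0.36 (0.02 to 0.68). With the richest 20% it had 71.0 against 51.4 CPM and a log2 ratio of 0.47 (0.21 to 0.71), so this difference did not rest on the cut. Nr3c2 in transgenic spots rich in atrial markers had 14.2 against 7.19 CPM, on 18 UMIs, but 8.66 against 7.66 CPM with the richest 20%. Nr3c1 in control spots rich in Schwann cell markers had 57.4 against 43.8 CPM, and with the richest 20% its log2 ratio was 0.23 (-0.04 to 0.50).

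**Figure D4:**
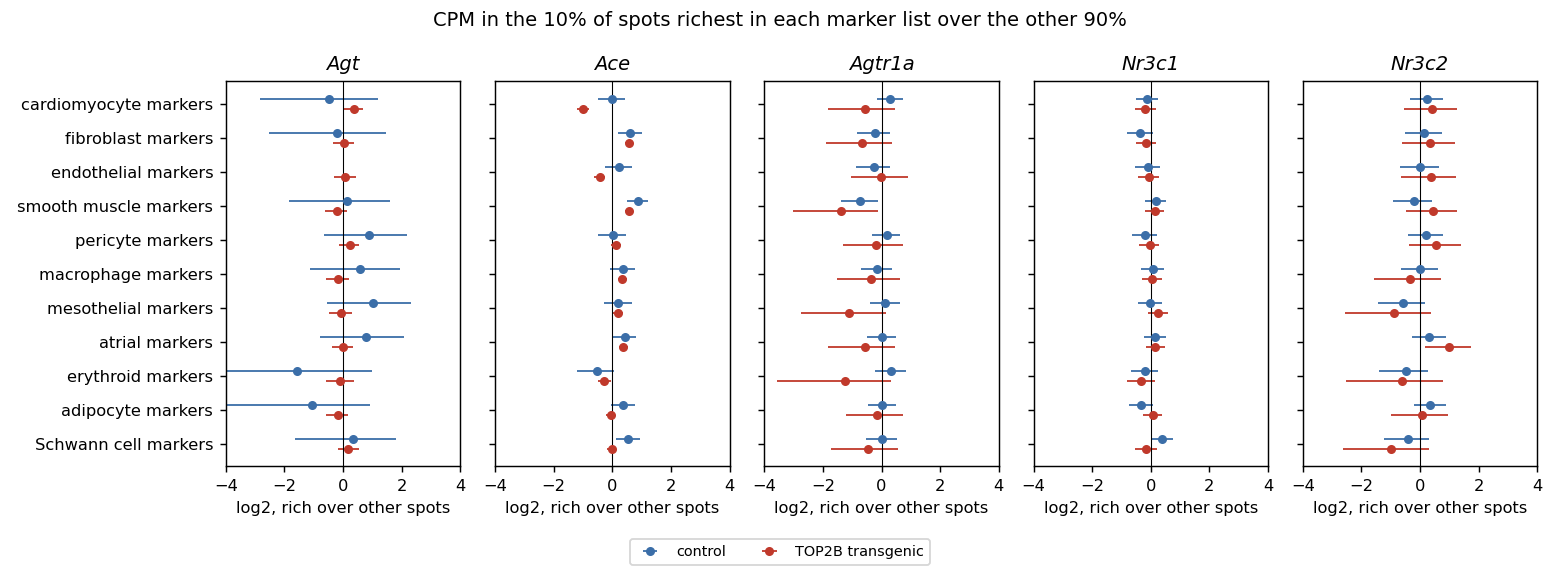
Log2 ratio of CPM in the 10% of spots richest in each marker list over the other 90%, for each gene in the control (blue) and TOP2B transgenic (red) section, with 95% counting intervals drawn to the ends of the axis. A pair without UMIs in the rich spots has no point. Transgenic Ace is lowest in spots rich in cardiomyocyte marker UMIs, at -0.996, a share that can differ by cell content or by marker RNA per cell. Ace lies above 0 in smooth muscle-rich and fibroblast-rich spots of both sections.

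For Ace and Nr3c1, which had at least 200 UMIs in both sections, genes were ranked by the lower of their correlations in the sections, over 1256 control and 923 transgenic spots. The genes most like Ace were Tpm2, with r of 0.12 in the control and 0.14 in the transgenic section, Col3a1, with 0.11 and 0.51, and Plscr3, with 0.11 and 0.15. Those most like Nr3c1 were Fhl2, with 0.11 and 0.10, Smpx, with 0.10 and 0.12, and Fam219a, with 0.10 and 0.09. Apart from transgenic Col3a1 these are weak and are no finding, and spots of a section share its library and depth. In the transgenic section by itself, looked at after values had been seen, Ace was most like Igfbp7 (r = 0.58), Col1a2 (r = 0.55) and Mgp (r = 0.54). Agt was most like Ech1 (r = 0.27), an enzyme of fatty acid oxidation, and Hrc (r = 0.27), a calcium-binding protein of the sarcoplasmic reticulum. Agt and Ace were counted in the same spot in 45.9% of transgenic spots, where 44.9% would follow from their separate shares. With Ace in 88.0% of transgenic spots the joint share had little room to differ, so it cannot show whether the 2 genes lie together or apart.

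The surrounding pathway was described by 9 lists with 105 genes in all, of which 92 had at least 20 UMIs over both sections. Of these, 30 had a transgenic level at least 2-fold above the control (32.6%, against 13.7% of all genes) and 3 at least 2-fold below it (3.26%, against 5.61%). Their median log2 ratio was 0.54, against 0.20 for all genes. Each gene was counted once, although some stand in several lists. Among the 30 are Cma1, Nox4 and Hsd11b2, which reached 20 UMIs mainly through the transgenic section. The lists were also chosen with earlier results of these data known, so these shares are no support for a change of the pathway.

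Of 17 enzymes that process angiotensins, 3 were past 2-fold higher and 1 past 2-fold lower, near the shares of 13.7% and 5.61% over all genes, and their median log2 ratio was 0.32. Renin itself, Ren1, had 9 control and 11 transgenic UMIs. Cma1, a mast cell chymase, had the highest ratio of the list, with 9 and 30 UMIs and a log2 ratio of 1.89 (0.78 to 3.15). It reached 20 UMIs mainly through the transgenic section, so its place among the 3 is no support for a change. Mcpt4, a mast cell protease of the same list, had 17 and 13 UMIs and an interval (-1.40 to 0.89) that included 0. Dpp3, a peptidase that degrades angiotensins, went from 44.0 to 102 CPM, with a log2 ratio of 1.22 (1.08 to 1.36). Neurolysin, Nln, had 55 and 103 UMIs, with a log2 ratio of 1.06 (0.57 to 1.56). Cathepsin G, Ctsg, had the lowest ratio, with 17 and 7 UMIs and an interval (-2.64 to 0.21) that included 0.

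None of the 6 angiotensin and kinin receptors and receptor-associated genes was past 2-fold. Agtrap, which binds the type 1 receptor and promotes its internalization, was highest of them, at 41.5 CPM (control) and 79.8 CPM (transgenic), with a log2 ratio of 0.94 (0.80 to 1.09). Mas1, the receptor for angiotensin-(1-7), was lowest, with 18 and 11 UMIs. Of 20 genes that couple the type 1 receptor to its signals, 5 were past 2-fold higher and 1 past 2-fold lower, against 13.7% and 5.61% of all genes. Nox4, a NADPH oxidase, had 15 and 58 UMIs and a log2 ratio of 2.10 (1.26 to 3.03). It reached 20 UMIs mainly through the transgenic section, so its place among the 5 is no support for a change. Gna12, a G protein α subunit, went from 125 to 57.1 CPM, with a log2 ratio of -1.13 (-1.25 to -1.002).

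Of 10 genes known to respond to angiotensin II, 6 were past 2-fold higher, against 13.7% of all genes, and none was past 2-fold lower. Their median log2 ratio was 1.45, against 0.20 for all genes. Like the other lists, this list was chosen with earlier results of these data known. Ccn2, connective tissue growth factor, led with 111 CPM (control) and 2278 CPM (transgenic), a log2 ratio of 4.37 (4.29 to 4.44). Ccl2, a monocyte chemokine, was lowest with 22 UMIs in each section. These genes respond to many other signals too.

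On the corticosteroid side, 8 enzymes and transport proteins were listed, of which 4 reached 20 UMIs and 3 were past 2-fold higher, against 13.7% of all genes. The median log2 ratio was 1.66 over these 4 and 0.34 over all members with at least 1 UMI. Hsd11b2 reached the 20 UMIs mainly through the transgenic section, so the count of 3 is no support for a change of the list. Hsd11b1, which regenerates active glucocorticoid inside cells, went from 9.18 to 28.95 CPM, with a log2 ratio of 1.66 (1.37 to 1.95). Star, which carries cholesterol into mitochondria, had 32 and 393 UMIs, with a log2 ratio of 3.77 (3.25 to 4.34). Hsd11b2, which inactivates glucocorticoid, had 7 and 20 UMIs. H6pd, which supplies the cofactor of Hsd11b1, was lowest, with a log2 ratio of -0.08 (-0.28 to 0.11). The steroid-synthesizing genes Cyp11a1 and Cyp11b2 had 7 to 10 UMIs in each section, and Cyp11b1 had none.

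Of 10 listed chaperones of the corticoid receptors, 7 were analysed. Of these, 2 were past 2-fold higher, 1 was past 2-fold lower and 4 lay between, against 13.7% higher and 5.61% lower of all genes. Fkbp5, a co-chaperone that lowers hormone binding and is itself a glucocorticoid response gene, had 23.4 CPM (control) and 146 CPM (transgenic), a log2 ratio of 2.64 (2.47 to 2.81). Fkbp4, its counterpart that favours hormone binding, had 555 and 166 CPM, a log2 ratio of -1.74 (-1.81 to -1.67). Hsp90aa1, the inducible Hsp90, had 107 and 323 CPM, a log2 ratio of 1.60 (1.51 to 1.68). The median of the 7 chaperones was -0.35, below that of all genes.

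Of 20 glucocorticoid response genes, 11 were past 2-fold higher and none past 2-fold lower, against 13.7% and 5.61% of all genes. Their median log2 ratio was 1.11, against 0.20. Lcn2, lipocalin 2, was highest, with 27 and 703 UMIs and a log2 ratio of 4.85 (4.30 to 5.46). Klf15, a transcription factor of muscle metabolism, was lowest, at 114 and 69.5 CPM with a log2 ratio of -0.71 (-0.83 to -0.59). Tsc22d3 and Per1, both well-known glucocorticoid targets, had log2 ratios of 0.48 (0.41 to 0.54) and 0.63 (0.51 to 0.75). Klf9 and Pdk4 of the same list were lower, at -0.49 (-0.55 to -0.42) and -0.12 (-0.20 to -0.04). Over the list 16 intervals lay above 0 and 3 below it. Whether these genes responded to glucocorticoid in these hearts was not tested. Of 15 mineralocorticoid response genes, 7 were past 2-fold higher and none past 2-fold lower, against the same shares, and several of them also stand in the glucocorticoid and angiotensin II lists. Scnn1a, a subunit of the epithelial sodium channel, was lowest with 38 and 28 UMIs. None of 3 other steroid receptors was past 2-fold, and Pgr, the progesterone receptor, had the lowest ratio, with 17 and 8 UMIs.

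**Figure D5:**
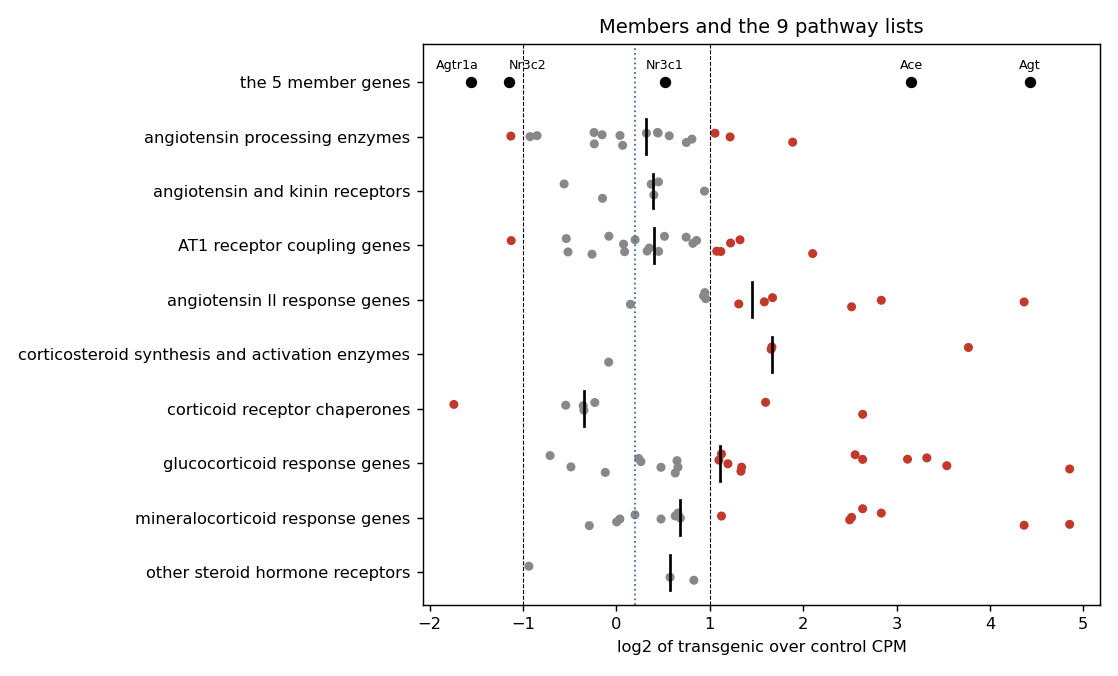
Log2 ratio of transgenic over control CPM for the 5 genes described here (black, top row) and for the genes of 9 pathway lists with at least 20 UMIs over both sections. Each point is a gene, red where it is past 2-fold (dashed lines), short bars are list medians and the dotted line is the median of all genes, 0.20. Agt at 4.42 and Ace at 3.16 lie beyond every listed angiotensin processing enzyme, the highest of which is Cma1 at 1.89 on 9 and 30 UMIs. Ace is itself such an enzyme but is not in that list. The 5 genes and the lists were chosen with earlier results of these data known, so this order is no support for a difference between them.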

How the data were processed

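Heart sections of 1 control and 1 TOP2B transgenic mouse were analysed. The deposited values are raw UMI counts of each gene in each spot, made by the authors with Space Ranger 2.0.0, per the file headers. The submitters' processing notes name GRCm39, mm39 and bcl2fastq, and the probe set is not given in the sources used here. Moran's I is a score the authors deposited per gene and section, used as given. Spots of a section are not replicates, so counts were summed per section and the study's test over spots was not repeated. Sums equalled those beside the deposited scores for 19219 control and 19227 transgenic genes.

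Intervals (95%) are exact Poisson for CPM, conditional binomial for ratios and Clopper–Pearson for shares. A count of 0 corresponds to at most 3 counts, or 0.209 CPM (control) and 0.232 CPM (transgenic). Called genes have at least 20 UMIs over both sections and a 2-fold ratio. Correlations over spots used log(1 + UMIs per 10000), among genes with at least 200 UMIs in both sections. The sections shared 725 spot barcodes, which mark array positions.

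Named genes are the listed genes, the highest and lowest of each list, enzymes, receptors and chaperones past 2-fold, the genes most like Ace and Nr3c1, Top2b, the Y chromosome genes and Xist. Tsc22d3, Per1, Klf9, Pdk4, Ren1, Mcpt4, Cyp11a1, Cyp11b1, Cyp11b2, Igfbp7, Col1a1, Col1a2, Mgp, Ech1 and Hrc were added after values had been seen. Some genes of the lists are not reported here. The listed genes and all gene lists were chosen with earlier results of these data known. Section totals were also scaled by TMM (edgeR 4.0.16) or size factors (DESeq2 1.42.0), both in R 4.3.3, or stripped of the 50 most abundant genes. Further alternatives were 1 CPM added, other filters and subsets of spots. The intervals of ratios were also run on counts simulated with Poisson error only, which carry no information on the spread between mice. Python 3.11.15, numpy 2.4.6, scipy 1.17.1, pandas 2.3.3 and matplotlib 3.10.9 were used.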

Additional observations from a re-analysis of the deposited data

How the results depend on the processing

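No log2 ratio of the 5 genes changed direction under any alternative run. TMM factors lowered every log2 ratio by the same amount, to 3.001 for Ace and 0.36 for Nr3c1, and DESeq2 size factors gave 3.01 and 0.36. In the 50% of spots richest in cardiomyocyte markers the ratio was 2.76 for Ace and 5.24 for Agt, the latter on 13 control UMIs. At equal depth per spot the shares of spots with a UMI were 34.0% for transgenic Agt, 21.1% and 82.7% for control and transgenic Ace, 18.5% and 6.15% for Agtr1a, 30.1% and 41.7% for Nr3c1, and 13.6% and 7.21% for Nr3c2. Of 65 ratios recomputed for the 5 genes, 59 moved by less than their counting interval. With 1 CPM added, the ratio of Agt was 3.98. The number of pathway genes past 2-fold was 33 and lay between 28 and 35 under the alternatives. The median of the corticosteroid enzymes was 0.34 when genes with at least 1 UMI were used. With 20% in place of 10% of spots, Ace in smooth muscle-rich control spots had a log2 ratio of 0.41 and in fibroblast-rich transgenic spots 0.72. The intervals came to include 0 for Agtr1a in smooth muscle-rich spots of both sections, Nr3c2 in atrial-rich transgenic spots, and Nr3c1 and Ace in Schwann cell-rich control spots. No paired analysis was possible because each group has 1 section. Depth limits what can be said of position for Agt in the control section, with 37 UMIs, and for Agtr1a and Nr3c2 in the transgenic section, with 117 and 102. Both sections come from 1 mouse each, and mouse, section plane, library and genotype cannot be told apart.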
